A study of Mus musculus with 12 samples.

Results

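The comparison set 6 arrays of cells that received the HIF-1a plasmid against 6 arrays of cells that did not, which together are all 12 arrays of the study. The members were chosen by the transfection named in the sample labels, and each array with the plasmid was matched to the array without it that shared its oxygen level, replicate number and FOXA2 transfection, giving 6 matched pairs. All arrays came from TRAMP-C cells, a line from the prostate tumour of a male TRAMP mouse of strain C57BL6 that the labels call wild-type. TRAMP mice carry an oncogene driven in the prostate epithelium and develop prostate tumours. Cells were nucleofected with 1 of 4 plasmid loads: empty pcDNA vector (called control), FOXA2, HIF-1a, or FOXA2 and HIF-1a together. After 48 h they spent 12 h in normoxia or in 1% oxygen, called hypoxia here. In normoxia each transfection had 1 array and in hypoxia 2, so the plasmid comparison was 2 arrays against 2 in normoxia and 4 against 4 in hypoxia. Every group was transfected, controls included, and the labels name neither the species of the HIF-1a cDNA, nor its promoter, nor the share of cells that took up DNA. The labels do not say whether replicates came from separate cultures, so a p-value here reflects how far these arrays scatter, and that scatter may be technical.

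Hypoxia-inducible factor is a transcription factor made of HIF-1a, whose amount follows oxygen, and its DNA-binding partner ARNT. In oxygenated cells prolyl hydroxylases of the EGLN family mark HIF-1a protein, the VHL ubiquitin ligase captures it and the proteasome destroys it. In low oxygen the protein persists and switches on genes for glycolysis, angiogenesis, mitophagy, matrix modification and its own hydroxylases. SIAH2, a ubiquitin ligase in the study's title, is known to degrade EGLN hydroxylases. The plasmid comparison asks what a raised supply of HIF-1a message does to the RNA of these cells, at either oxygen level. Protein was not measured on these arrays.

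The plasmid raised Hif1a, and no other gene passed the test. Hif1a was 8.45-fold higher with the plasmid over all arrays, 11.5-fold in normoxia and 7.26-fold in hypoxia, and it was the only gene of 9609 called in each of these 3 comparisons. Of 60 measured HIF targets, 0 were called for the plasmid, while 46 were called higher in hypoxia in cells without it. In that hypoxia comparison 7.41% of all genes were called higher.

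Levels are log2 of background-corrected, quantile-normalized bead intensity. Over the 12 arrays 15322 to 17182 of 45281 probes were detected, and mean intensity was 298 to 380 except on FOXA2+HIF-1a hypoxia 1 (559). Precision is limited by how few arrays there were. Standard errors, intervals and p-values given for 1 oxygen level use a spread estimated over all 12 arrays. There were 2 slides, slide 1 with 2 plasmid arrays and 4 others and slide 2 with 4 and 2. The plasmid and the slide are thus partly confounded. In the FOXA2 normoxia 1 and FOXA2 hypoxia 1 pairs the plasmid array was on slide 2 and its match on slide 1. Every other pair lay within a slide. Among markers of prostate epithelial cells, Krt8 (log2 5.19 to 5.93, detected on 8 arrays) and Cdh1 (5.11 to 7.08, on 11) were measured at low level, and Krt18 and Epcam were not among the genes measured here. Of 20 immune and 13 endothelial markers, 3 and 1 were measured, and their summed linear levels overlapped between groups: 435 to 930 with the plasmid and 415 to 667 without it for immune markers, 191 to 582 and 215 to 506 for the endothelial marker.

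Some arrays stood apart, all of them plasmid arrays in hypoxia. Every level was set against the median of the other arrays at the same oxygen level. On HIF-1a hypoxia 1, 63 genes lay more than 2 below it on the log2 scale, and on FOXA2+HIF-1a hypoxia 2, 19 genes did. On FOXA2+HIF-1a hypoxia 1, 21 genes lay more than 2 above. The other 9 arrays had 0 to 5 genes below and 0 to 4 above. Other detected probes of the same genes seldom shared the deficit: 1 of 29 on HIF-1a hypoxia 1 and 0 of 11 on FOXA2+HIF-1a hypoxia 2 lay more than 2 below, with median differences of 0.07 and 0.09. Erbin, which encodes a scaffold protein of epithelial junctions, was at 4.51 on HIF-1a hypoxia 1 and at 9.42 to 9.99 on the other 11 arrays. Values without HIF-1a hypoxia 1, or without it and FOXA2+HIF-1a hypoxia 2 together, are given below for some of the genes whose value moved, and beyond leaving arrays out their part in the results was not tested.

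**Figure D1:**
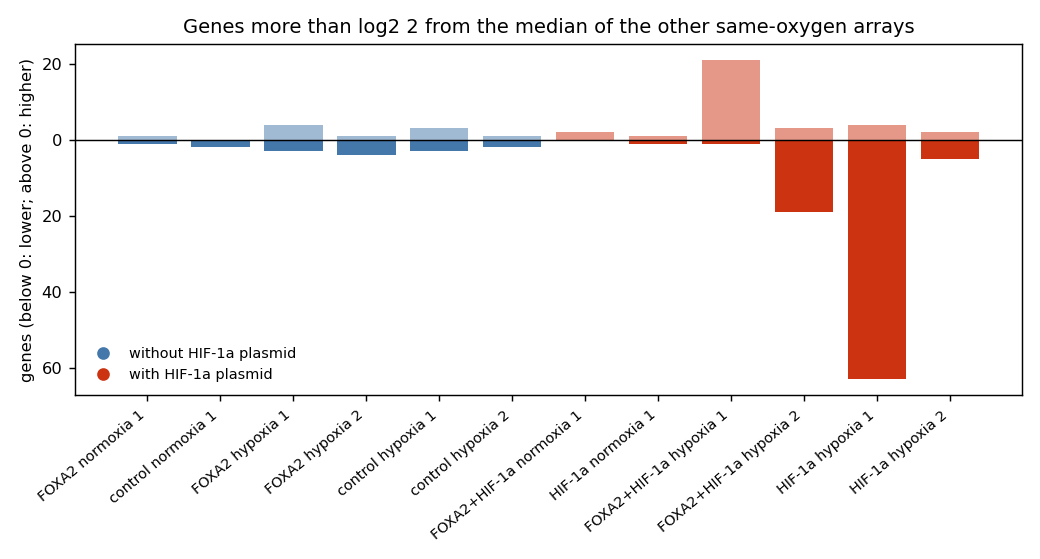
Number of genes on each array whose log2 level was more than 2 below (bars under 0) or more than 2 above (bars over 0) the median of the other arrays at the same oxygen level; blue, without the HIF-1a plasmid, red, with it. HIF-1a hypoxia 1 has 63 genes below, FOXA2+HIF-1a hypoxia 2 has 19 below and FOXA2+HIF-1a hypoxia 1 has 21 above.

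Hif1a was at log2 9.55 in control and 9.06 in FOXA2 normoxia cells, and at 12.83 with the HIF-1a plasmid and 12.82 with both plasmids. In hypoxia replicate 1 it was at 9.63 in control and 9.42 in FOXA2 cells against 12.34 with HIF-1a and 13.18 with both. In hypoxia replicate 2 it was at 9.64 in control and 9.64 in FOXA2 cells against 12.27 with HIF-1a and 11.98 with both. The groups did not overlap, and every array carried the Hif1a level its label called for. Over all arrays the difference was 3.08 ± 0.18 (SE, 6 against 6; limma, adjusted p = 6.54e-06), higher in 6 of 6 pairs, and 0.0104% of all 9609 genes were called in this comparison. In normoxia it was 3.52 ± 0.29 (limma, adjusted p = 0.000595) and in hypoxia 2.86 ± 0.21 (adjusted p = 0.00013), each again with 0.0104% of genes called. The smaller value in hypoxia was not called as a difference between oxygen levels (−0.66 ± 0.36, adjusted p = 0.906), and neither was the value with FOXA2 (3.29 ± 0.26) against that without it (2.87 ± 0.26; limma interaction, adjusted p = 0.765). At an unadjusted p under 0.05, 3.48% of genes passed for the plasmid without FOXA2 and 16.5% with FOXA2. Hif1a alone was called in each. Slide and FOXA2 cannot be told apart in these shares, since only pairs with FOXA2 crossed slides. Bulk RNA does not tell more message per cell from more cells that took up the plasmid. The value comes from 1 Hif1a probe, and whether that probe reads plasmid as well as endogenous message cannot be told from the files. The other Hif1a probe, at 4.45 to 4.95, was detected on 0 arrays. Hypoxia itself gave a fitted Hif1a difference of 0.41 ± 0.27 in cells without the plasmid (limma, adjusted p = 0.369). Throughout, such hypoxia values are fitted at replicate 1, with a replicate term shared by arrays with and without the plasmid. They can therefore differ from the plain difference between the levels listed.

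**Figure D2:**
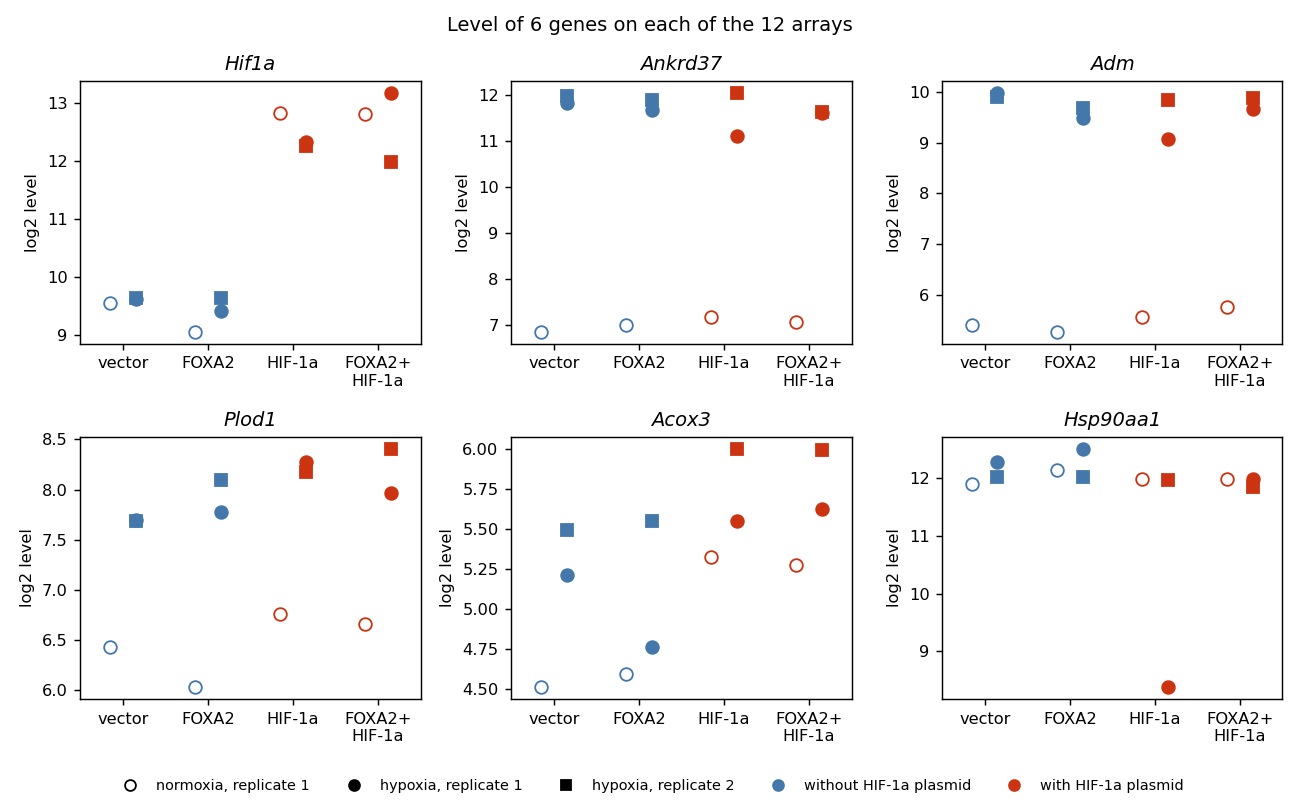
Log2 level (y axis) of 6 genes on each of the 12 arrays by transfection (x axis); blue, without the HIF-1a plasmid, red, with it; open circles, normoxia, filled circles, hypoxia replicate 1, squares, hypoxia replicate 2. Hif1a separates by plasmid, Ankrd37 and Adm by oxygen, Plod1 and Acox3 shift a little with the plasmid in every pair, and Hsp90aa1 is low on HIF-1a hypoxia 1 alone (8.38).

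The promoters below are shown because these genes carry the contrast between the plasmid and low oxygen: Mgarp, Ankrd37, Adm and Egln3 had the largest hypoxia rises among HIF targets with 1 promoter entry in RefSeq, and Plod1 and Acox3 lay highest in significance for the plasmid among HIF targets and among all genes after Hif1a. Each line gives the 250 bases before the RefSeq start on the gene's strand, 5′ to 3′ (RefSeq, GRCm38.p6). Capitals mark ACGTG or GCGTG on either strand, so that their reverse complements CACGT and CACGC are also in capitals; both are forms of the core that HIF is known to bind, and neighbouring matches may overlap.
Mgarp: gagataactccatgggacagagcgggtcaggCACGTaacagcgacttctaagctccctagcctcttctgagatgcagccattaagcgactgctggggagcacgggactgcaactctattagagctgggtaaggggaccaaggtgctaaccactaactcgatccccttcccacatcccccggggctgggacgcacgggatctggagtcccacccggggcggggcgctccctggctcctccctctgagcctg
Ankrd37: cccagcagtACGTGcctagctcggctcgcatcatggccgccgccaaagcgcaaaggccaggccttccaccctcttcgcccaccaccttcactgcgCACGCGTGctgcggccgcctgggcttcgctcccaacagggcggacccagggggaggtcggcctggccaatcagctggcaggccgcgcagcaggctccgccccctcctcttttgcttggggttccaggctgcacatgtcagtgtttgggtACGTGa
Adm: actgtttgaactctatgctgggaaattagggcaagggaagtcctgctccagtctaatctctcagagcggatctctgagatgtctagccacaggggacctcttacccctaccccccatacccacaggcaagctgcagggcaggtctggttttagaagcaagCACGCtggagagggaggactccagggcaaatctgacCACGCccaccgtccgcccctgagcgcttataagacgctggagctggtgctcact
Egln3: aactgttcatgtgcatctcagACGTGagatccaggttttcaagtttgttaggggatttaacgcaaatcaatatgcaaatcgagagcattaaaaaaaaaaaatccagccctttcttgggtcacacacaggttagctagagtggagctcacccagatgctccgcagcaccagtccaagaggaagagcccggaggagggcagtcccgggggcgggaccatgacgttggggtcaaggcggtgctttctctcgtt
Plod1: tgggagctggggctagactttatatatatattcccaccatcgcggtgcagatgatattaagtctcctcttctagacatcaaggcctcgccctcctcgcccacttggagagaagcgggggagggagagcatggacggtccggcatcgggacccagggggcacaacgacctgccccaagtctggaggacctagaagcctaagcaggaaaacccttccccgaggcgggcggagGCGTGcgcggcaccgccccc
Acox3: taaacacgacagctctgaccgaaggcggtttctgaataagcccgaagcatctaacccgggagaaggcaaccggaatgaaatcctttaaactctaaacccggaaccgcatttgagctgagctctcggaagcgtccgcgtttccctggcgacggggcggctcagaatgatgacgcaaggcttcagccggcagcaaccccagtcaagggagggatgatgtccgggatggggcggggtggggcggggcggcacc
The Mgarp stretch is chr3:51396548-51396797 (minus strand), Ankrd37 chr8:45999851-46000100 (minus), Adm chr7:110627407-110627656 (plus), Egln3 chr12:54203875-54204124 (minus), Plod1 chr4:147936777-147937026 (minus) and Acox3 chr5:35582784-35583033 (plus). Ankrd37 held 2 ACGTG and 2 GCGTG matches, Mgarp and Egln3 1 ACGTG each, Adm 2 GCGTG, Plod1 1 GCGTG and Acox3 0 of either. Of 32851 promoter stretches of the same length in the table, 16.6% held ACGTG, 28.2% GCGTG and 38.6% either of them. Of the 48 measured HIF targets with an entry, 27 (56.2%) held ACGTG in some promoter against 18.5% of 27025 genes. A match is a description of these letters and not a binding site.

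Ankrd37, a known HIF target of ankyrin-repeat type, shows the pattern of the strongly induced genes. In normoxia it was at 6.85 in control, 6.99 in FOXA2, 7.16 in HIF-1a and 7.06 in FOXA2+HIF-1a cells. In hypoxia it was at 11.83 and 11.98 in control, 11.67 and 11.90 in FOXA2, 11.11 and 12.05 in HIF-1a, and 11.62 and 11.63 in FOXA2+HIF-1a cells. The levels split by oxygen and overlapped between plasmid groups in hypoxia. The plasmid difference in normoxia was 0.19 ± 0.20, with a 95% interval of −0.24 to 0.62. Hypoxia without the plasmid raised Ankrd37 by 4.76 ± 0.18 (27.0-fold; limma, adjusted p = 2.72e-08). Both values come from 1 fit and share the control and FOXA2 normoxia arrays, as do all such pairs of values here.

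Adm encodes the vasodilator peptide adrenomedullin. It was at 5.40 and 5.27 in normoxia without the plasmid (control, FOXA2) and at 5.55 and 5.76 with it (HIF-1a, both), and the groups did not overlap there. In hypoxia it was at 9.48 to 9.98 on the 4 arrays without the plasmid and at 9.08 to 9.88 on the 4 with it. The plasmid difference in normoxia was 0.32 ± 0.23, against a hypoxia rise of 4.29 ± 0.21 (19.6-fold). The intervals for Mgarp, a mitochondrial protein (normoxia plasmid difference 0.33 ± 0.29, upper 95% limit 0.96), and for Egln3, a hypoxia-induced HIF prolyl hydroxylase (−0.10 ± 0.19, upper limit 0.32), also stayed under log2 1. Their hypoxia rises were 4.89 ± 0.27 and 3.10 ± 0.18.

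Among angiogenic and secreted targets, Vegfa, the vascular growth factor, was at 10.41 and 10.46 in normoxia without the plasmid and at 10.35 and 10.48 with it. The normoxia groups overlapped. Under hypoxia its levels were at 12.13 to 12.42 without the plasmid and at 11.80 to 12.42 with it. The plasmid gave −0.02 ± 0.16 in normoxia and −0.27 ± 0.11 in hypoxia (adjusted p = 0.256), and hypoxia raised it by 1.74 ± 0.15. Over all arrays the difference was −0.18 on this Vegfa probe and 0.23 on the other detected one. Stc1, a secreted glycoprotein hormone, gave 0.10 ± 0.18 for the plasmid in normoxia and rose by 3.52 ± 0.17 in hypoxia. Apln, the peptide apelin, was detected on 2 of 4 hypoxia arrays without the plasmid and on 0 of 4 with it. It was at least 1.13-fold lower (−0.73 ± 0.13 as fitted, adjusted p = 0.229). Apln passed the detection filter only through those 2 arrays, so this value is no support for a plasmid effect.

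Of 16 measured glycolysis genes, 0 were called and the median difference was 0.10 over all arrays and 0.04 in normoxia, beside a median of 0.00 over all 9609 genes in both. The glucose transporter Slc2a1 was at 11.24 to 11.54 on the 4 normoxia arrays and at 13.53 to 13.87 on the 8 hypoxia arrays, with a plasmid difference in normoxia of 0.16 ± 0.14. Pdk1, a pyruvate dehydrogenase kinase, was at 7.92 and 7.72 in normoxia without the plasmid and at 8.22 and 8.20 with it. That difference of 0.39 ± 0.19 was not called, and hypoxia raised Pdk1 by 2.66 ± 0.17. Pgam1, a phosphoglycerate mutase, was at 10.11 and 9.90 without and at 10.43 and 10.42 with the plasmid in normoxia, higher in 6 of 6 pairs (0.22 ± 0.09 over all arrays, adjusted p = 0.48). The other Pgam1 probe, also detected on 12 arrays, gave −1.07 over all arrays and −0.02 in normoxia, so the direction for this gene depends on the probe. The aldolase Aldoc gave 0.33 ± 0.11, the phosphofructokinase Pfkp 0.23 ± 0.10 and the lactate exporter Slc16a3 0.53 ± 0.32 (adjusted p = 0.48, 0.48 and 0.509). Slc16a3 was at 8.65 on FOXA2+HIF-1a hypoxia 1 and at 5.94 to 6.56 on the other 7 hypoxia arrays, and without FOXA2+HIF-1a hypoxia 1 its difference was 0.13.

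Of 44 measured HIF targets outside glycolysis, 0 were called for the plasmid, with 22 higher and 22 lower and a median of 0.00. In normoxia 26 were higher and 18 lower, with a median of 0.05, and in hypoxia 19 were higher and 25 lower, with a median of −0.04. The collagen lysyl hydroxylase Plod1 had the smallest p of the list. It was at 6.43 and 6.03 in normoxia without the plasmid and at 6.76 and 6.66 with it. Under hypoxia the range was 7.69 to 8.10 without the plasmid and 7.97 to 8.41 with it. Plod1 was higher in 6 of 6 pairs, by 0.42 ± 0.10 (1.34-fold; limma, adjusted p = 0.48), 0.45 on slide 1 alone and 0.40 on slide 2 alone. The haem oxygenase Hmox1 was also higher in 6 of 6 pairs (0.33 ± 0.10, adjusted p = 0.48), by 0.30 on slide 1 and 0.11 on slide 2. Plod1, Hmox1 and, on 1 of its 2 probes, Pgam1 were the 3 of 60 targets higher in every pair, and 0 were lower in every pair; among all genes 5.21% had 1 direction in 6 of 6 pairs (225 higher and 276 lower). Bnip3, a mitophagy receptor, gave −0.18 ± 0.09 and the carbonic anhydrase Car9 0.00 ± 0.13. The lower values of the oxidase Ero1a (−0.66 ± 0.40) and the MYC antagonist Mxi1 (−0.39 ± 0.26) became −0.13 and −0.07 without HIF-1a hypoxia 1.

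Of the 60 targets, 56 were detected on at least 1 normoxia array. For 54 of these 56 (96.4%) the upper 95% limit of the plasmid difference in normoxia was under log2 1, a 2-fold rise, as it was for 98.7% of the 9297 genes detected there, so these limits do not set the targets apart. The largest estimate was 0.48 (Plod1), and the 2 with higher limits were Hk1 and Mxi1. The spread behind these limits was shared with the hypoxia arrays. Rora, Bnip3, Slc16a3 and Ero1a were above background on 0 normoxia arrays of either group, so no limit is given for them there. In cells without the plasmid hypoxia raised 34 of 44 targets and 12 of 16 glycolysis genes, with median changes of 1.85 and 1.15, beside 7.41% of all genes called higher. Set directly against normoxia cells that had the plasmid, hypoxia cells without it were higher in 33 of 44 and 12 of 16 (6.94% of all genes). Hif1a message was higher in the former, and most targets were higher in the latter. The hypoxia rises of Rora, Bnip3, Slc16a3 and Ero1a, given as bounds, were at least 4.57-fold, 2-fold, 2.01-fold and 6.08-fold. Of the 60 targets, 5 had a hypoxia value below 0, and Edn1, the vasoconstrictor endothelin, was the 1 called lower. Edn1 fell by 0.86 in hypoxia and gave −0.24 ± 0.20 for the plasmid in normoxia.

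**Figure D3:**
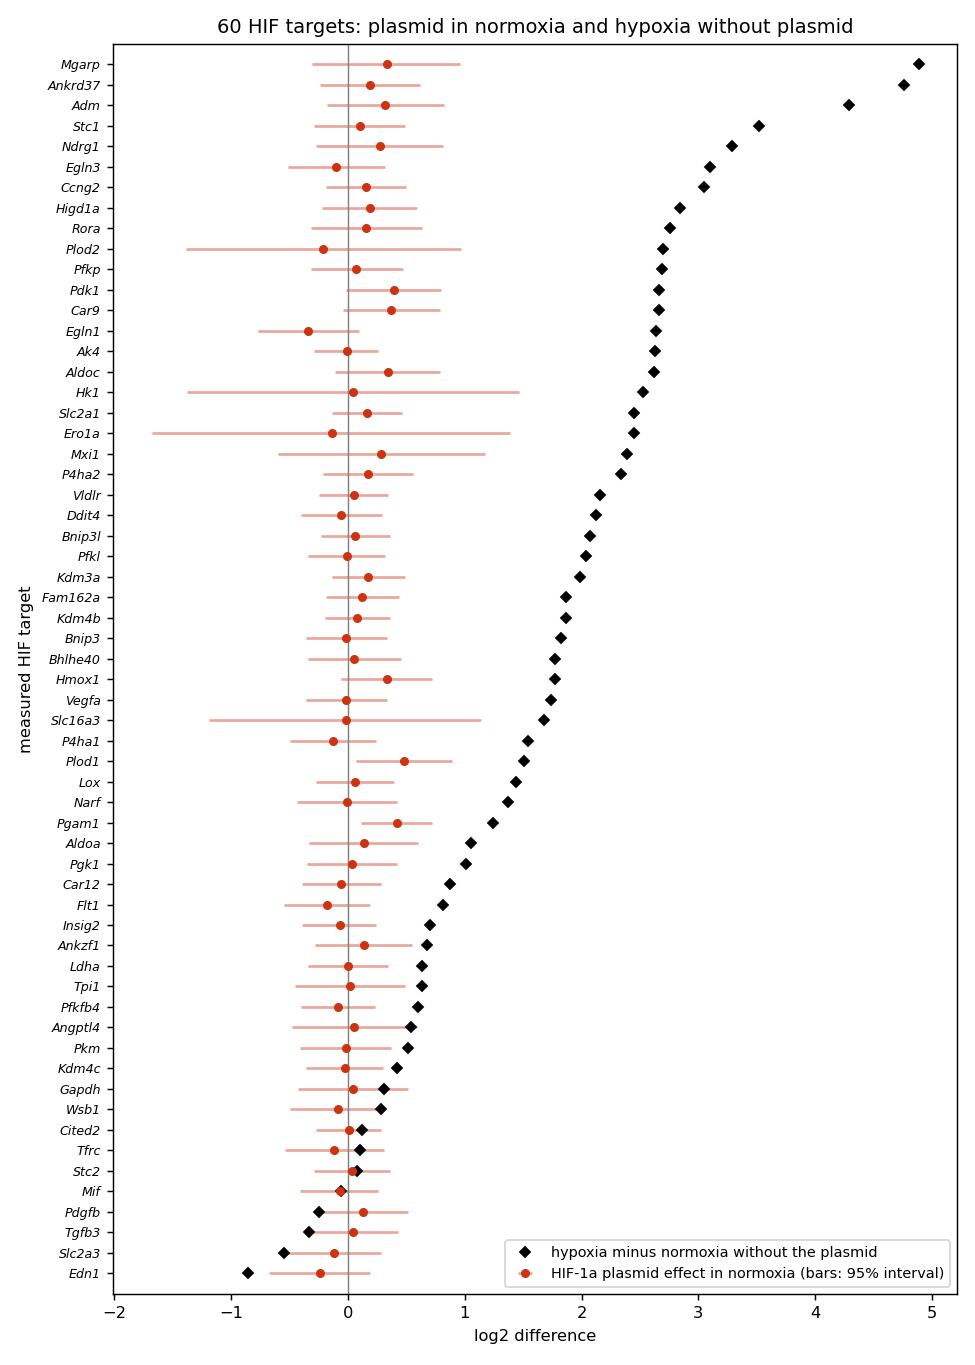
Log2 difference (x axis) for each of the 60 measured HIF targets (y axis, ordered by the hypoxia value). Red points with 95% intervals give the HIF-1a plasmid effect in normoxia, all between −0.34 and 0.48, and for the 4 targets not above background in normoxia they give no limit; black diamonds give hypoxia minus normoxia in cells without the plasmid, which reach 4.89.

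Of 28 genes for HIF subunits and regulators 22 were measured, and Hif1a alone was called for the plasmid. Arnt, the DNA-binding partner, was at 9.68 to 9.81 on the 4 normoxia arrays and differed by 0.16 ± 0.08 over all arrays (adjusted p = 0.487). Hif3a, a related subunit near background, gave 0.15 ± 0.11, and the asparaginyl hydroxylase Hif1an 0.11 ± 0.08. Other detected probes gave −0.25 to 0.07 for Arnt. Among the prolyl hydroxylases Egln2 gave −0.16 ± 0.10 and Egln3 −0.09 ± 0.11.

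Egln1, the main prolyl hydroxylase for HIF-1a, took opposite signs at the 2 oxygen levels. It was at 6.24 and 6.14 in normoxia without the plasmid and at 5.62 and 6.07 with it. Its hypoxia levels were 8.69, 9.10, 8.76 and 8.96 without the plasmid and 9.40, 9.10, 9.53 and 9.65 with it. In hypoxia the groups met at 9.10, and the other 3 plasmid arrays were above every array without it. The plasmid difference was −0.34 ± 0.20 in normoxia and 0.54 ± 0.14 in hypoxia, where it passed no adjusted threshold (adjusted p = 0.229). The difference between those values, 0.88 ± 0.24, was not called either (limma interaction, adjusted p = 0.906). These values come from the brightest Egln1 probe. Its other detected probes gave smaller decreases in normoxia, −0.09 and −0.13, and 0.3 and 0.31 over all arrays.

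The ubiquitin ligase Siah2 was at 7.68 and 7.61 in normoxia without the plasmid and at 7.84 and 7.56 with it. In hypoxia it was at 9.04 to 9.23 on the 4 arrays without the plasmid and at 8.29 to 9.13 on the 4 with it. The groups overlapped in both, although 3 of the 4 plasmid arrays in hypoxia lay below every array without it. The difference was 0.05 ± 0.17 in normoxia and −0.40 ± 0.12 in hypoxia (adjusted p = 0.229). Over all arrays it was −0.25, and −0.14 without HIF-1a hypoxia 1 and FOXA2+HIF-1a hypoxia 2. Of the related ligases, Siah1a gave 0.08 ± 0.15 and Siah1b 0.03 ± 0.09.

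Vhl, the substrate receptor of the HIF ubiquitin ligase, was at 6.05 on HIF-1a hypoxia 1 and at 9.78 to 10.78 on the other 7 hypoxia arrays. Its difference of −0.96 ± 0.55 became −0.11 without HIF-1a hypoxia 1 and FOXA2+HIF-1a hypoxia 2. The chaperone Hsp90aa1, which holds HIF-1a in a folded state, was at 8.38 on HIF-1a hypoxia 1 and at 11.85 to 12.52 on the other 11 arrays, and −0.79 ± 0.48 became −0.15. The ligase subunits Elob, Eloc, Cul2 and Rbx1 differed by −0.12 to 0.04. The SUMO protease Senp1 was higher in 6 of 6 pairs (0.36 ± 0.13, adjusted p = 0.48) on its brighter probe, and that difference was 0.20 without those 2 arrays. The other Senp1 probe, detected on 12 arrays, gave −0.05 over all arrays and −0.53 in normoxia. The coactivators Crebbp and Ep300 gave −0.22 ± 0.11 and −0.07 ± 0.21. Cited2, a HIF-induced competitor for those coactivators, gave −0.07 ± 0.07 on its brightest probe and 0.32 and 0.53 on the other 2 detected probes, Os9 0.06 ± 0.07 and the deubiquitinase Usp20 −0.06 ± 0.08.

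Over all genes, 964 of 9609 (10%) had an unadjusted p under 0.05 for the plasmid, 412 higher and 552 lower. Without the replicate number in the fit, 495 did. Acox3, a peroxisomal acyl-CoA oxidase of branched-chain fat breakdown, came closest to a call after Hif1a. It was at 4.51 and 4.59 in normoxia without the plasmid and at 5.32 and 5.27 with it. In hypoxia it was at 5.21 and 5.49 in control and 4.76 and 5.55 in FOXA2 cells, against 5.55 and 6.0 with HIF-1a and 5.62 and 5.99 with both. Every plasmid array was above its matched array, although the groups overlapped across pairs. The difference was 0.61 ± 0.09 (1.52-fold, adjusted p = 0.0766). Acox3 lay near background, detected on 6 of 6 arrays with the plasmid and 2 of 6 without. It was detected on 0 of 2 normoxia arrays without the plasmid, and there the difference is at least 1.06-fold. Without control hypoxia 1 it was called (0.67, adjusted p = 0.0453). Over 26 alternatives the adjusted p of Acox3 ranged from 0.0453 to 0.998 and the difference from 0.41 to 0.67, and the fit with the slide in place of the replicate number gave 0.46 (adjusted p = 0.577), with 0.58 on slide 1 alone and 0.47 on slide 2 alone.

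**Figure D4:**
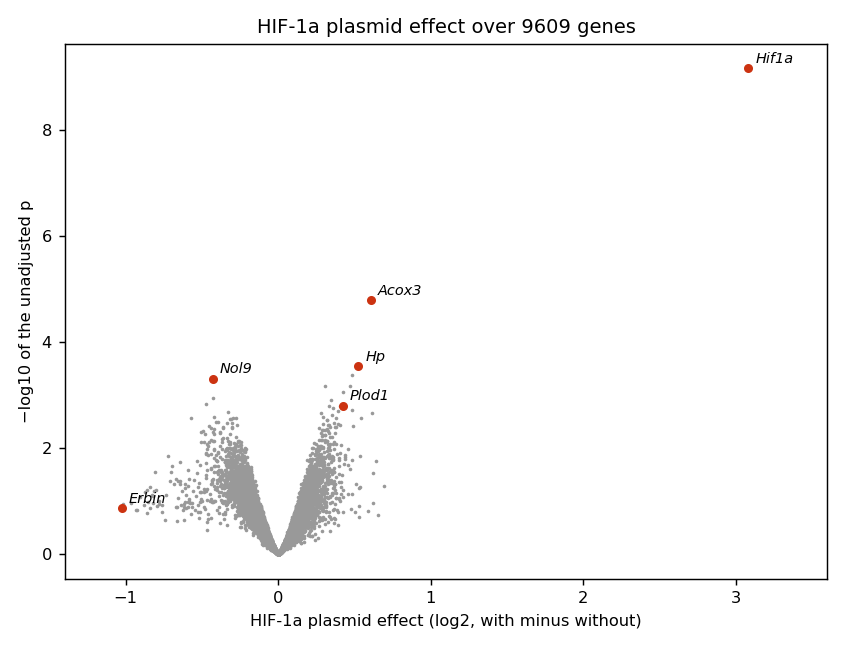
HIF-1a plasmid effect (x axis, log2, with minus without) against −log10 of the unadjusted limma p (y axis) for 9609 genes, each a point, with 6 genes named, Hif1a, Acox3, Hp, Nol9, Plod1 and Erbin. Hif1a stands alone at 3.08, Acox3 is next by p, and Erbin, with the largest decrease (−1.03), has a large p.

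The next genes by p on the higher side did not pass (adjusted p = 0.48 each). They were Hp, the haemoglobin carrier haptoglobin (0.52 ± 0.10, near background), the secreted WNT antagonist Sfrp1 (0.48 ± 0.10), the palmitoyltransferase Zdhhc5 (0.47 ± 0.10), the lipid hydrolase Abhd4 (0.31 ± 0.07), the repressor Cic (0.42 ± 0.10) and the RNA helicase Mov10 (0.35 ± 0.08), each higher in 6 of 6 pairs. Hp gave 0.18 with the slide in place of the replicate number and 0.27 on slide 1 alone. The other detected probe of Hp gave 0.09 over all arrays, and that of Sfrp1 gave 0.23. On the lower side were the polynucleotide kinase Nol9 (−0.43 ± 0.09), the chromatin-remodelling subunit Bcl7a (−0.43 ± 0.10), the deubiquitinase Otud6b (−0.48 ± 0.12), the paraspeckle protein Pspc1 (−0.33 ± 0.09), Nfatc2ip (−0.42 ± 0.11), the protein disulphide isomerase Pdia6 (−0.30 ± 0.08), Usp6nl (−0.28 ± 0.07) and the RNA helicase Ddx39a (−0.57 ± 0.15). The other detected probes of Pdia6 and Usp6nl gave 0.01 and 0.04. The largest decreases by size, Erbin (−1.03 ± 0.64) and the mitochondrial assembly factor Cox11 (−1.02 ± 0.59), rested on HIF-1a hypoxia 1, where Cox11 was at 4.39 against 8.89 to 9.42 elsewhere. They became −0.19 and −0.21 without that array and FOXA2+HIF-1a hypoxia 2.

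In normoxia, where 2 arrays met 2, 125 genes (1.3%) had an unadjusted p under 0.05, 97 higher and 28 lower. The spread behind these p-values was shared with the hypoxia arrays, so they do not measure the scatter of normoxia arrays alone. Over genes, the differences within pairs had an SD of 0.2 and 0.19 in the normoxia pairs and 0.2 to 0.43 in the hypoxia pairs. Next to Hif1a by p was Rdh10, a retinol dehydrogenase, at 4.48 and 4.54 without the plasmid and 5.07 and 5.52 with it. It was detected on 1 of 2 arrays with the plasmid and 0 of 2 without, and the difference is at least 1.06-fold. Rdh10 was detected on no array without the plasmid at either oxygen level. It passed the detection filter only through plasmid arrays, so its rank is no support for a plasmid effect. Dedd2, a death-effector protein, was at 6.45 and 6.37 without and at 7.19 and 6.87 with the plasmid (0.63 ± 0.15). The small heat shock protein Cryab was at 9.38 and 9.67 without and at 10.17 and 10.03 with it (0.57 ± 0.15), and the WNT antagonist Frzb at 6.99 and 6.74 against 7.46 and 7.51 (0.62 ± 0.17). None of these passed (limma, adjusted p of 1 each). The CCR4-NOT ubiquitin ligase Cnot4 was lower on its brightest probe without passing, at 8.42 and 8.94 against 8.06 and 8.21 (−0.54 ± 0.16). Its other detected probes gave −0.25 and 0.01 in normoxia.

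In hypoxia, 4 arrays against 4, 1733 genes (18%) had an unadjusted p under 0.05 and again only Hif1a was called. The lowest adjusted p outside Hif1a was 0.229. It belonged to genes such as Palld, an actin-binding protein (0.62 ± 0.13), Atxn2l (0.83 ± 0.17), Nol9 (−0.57 ± 0.09) and Bcl7a (−0.59 ± 0.10). The count of calls depended on HIF-1a hypoxia 2, the only plasmid array in hypoxia that did not stand apart. Leaving it out kept only arrays that stood apart on the plasmid side. Without HIF-1a hypoxia 2, 752 genes were called, 242 higher and 510 lower. Their median absolute difference was 0.54 on the log2 scale, against 0.41 for the same genes over all arrays. Of these 752, 676 had an unadjusted p under 0.05 over all arrays. They made up 7.83% of all genes and 3 of the 60 HIF targets (5%), which were Egln1 (0.68), Higd1a (−0.40) and Vegfa (−0.37).

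The difference of the plasmid effect between oxygen levels was called for 0 of 9609 genes (0%; 363 genes, 3.78%, at an unadjusted p under 0.05). Tmem138, a ciliary membrane protein, had the smallest p. It was at 5.78 and 6.25 in normoxia without the plasmid against 5.14 and 5.70 with it, and its 4 hypoxia pairs differed by 0.33, 0.30, 1.00 and 0.87. The plasmid effect with FOXA2 minus that without it was also called for 0 genes (0%; 727 genes, 7.57%, unadjusted). Hira, a histone chaperone, had the smallest p on the higher side (0.80), and the stress regulators Xbp1 (−0.66) and Bbc3 (−0.66) were among the lowest p on the other side. With the slide added beside the replicate number, the effect with FOXA2 rested on FOXA2+HIF-1a hypoxia 2 alone, an array that stood apart. The count of calls from that fit is listed only among the alternatives, and no conclusion is drawn from it. Slide and replicate number differ only on the FOXA2+HIF-1a replicate 1 arrays.

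Of the 3 genes that the study is known to have followed up, 0 were called for the plasmid. Hes6, a transcription factor of neuroendocrine differentiation, was at 6.86 and 6.92 in normoxia without the plasmid and at 7.12 and 7.17 with it. Hypoxia levels were at 8.20 to 8.79 without and 7.93 to 9.15 with the plasmid, so the groups overlapped. The Hes6 difference over all arrays was 0.20 ± 0.13 (adjusted p = 0.533), and 0.06 without HIF-1a hypoxia 1 and FOXA2+HIF-1a hypoxia 2. Sox9, a developmental transcription factor, gave −0.01 ± 0.08 and the histone demethylase Kdm3a 0.04 ± 0.08, with 95% intervals in normoxia of −0.27 to 0.33 and −0.14 to 0.49. The other 2 detected Kdm3a probes gave 0.31 and 0.38 over all arrays. Foxa2 followed its own plasmid, at 9.27 to 10.98 on the 6 arrays with it and 6.14 to 7.07 on the others, and differed by 0.14 ± 0.23 for HIF-1a. Of 5 measured neuroendocrine and neuronal markers, 2 were higher (Uchl1 0.23 ± 0.13 and Eno2 0.14 ± 0.09) and 3 lower, with 0 called. The growth-cone protein Gap43 (−0.48 ± 0.16) and the secretory granule chaperone Scg5 (−0.19 ± 0.08) were lower in 6 of 6 pairs without passing. Gap43 was at 5.05 on HIF-1a hypoxia 1, an array that stood apart, and at 6.18 to 7.03 on the other 11, and its difference without that array was −0.30. The Notch ligand Jag1 was also lower in 6 of 6 pairs (−0.37 ± 0.11, adjusted p = 0.48).

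Interferon-stimulated genes, the antiviral response set, were more often higher than lower with the plasmid in normoxia, with 0 called. Of 48 measured, 41 were higher and 7 lower, with a median of 0.12, beside 4632 higher and 4977 lower of all genes and a median of 0.00. Psmb9, an immunoproteasome subunit, was at 7.18 and 6.65 without the plasmid and at 7.59 and 7.54 with it (0.65 ± 0.18). The ubiquitin-like modifier Isg15 was at 10.84 and 11.06 without and at 11.41 and 11.24 with it (0.38 ± 0.17). By pair, 75% of the list was higher in the vector normoxia pair and 85.4% in the FOXA2 normoxia pair, against 50.2% and 48.6% of all genes. In the vector hypoxia pairs the share was 62.5% and 58.3%, against 59.5% and 51.2% of all genes. In the FOXA2 hypoxia pairs it was 62.5% and 29.2%, against 40% and 49.5%. The plasmid arrays of 3 of these 4 hypoxia pairs stood apart, all but that of the vector replicate 2 pair. The list was chosen with these data known, and its counts are a description.

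**Figure D5:**
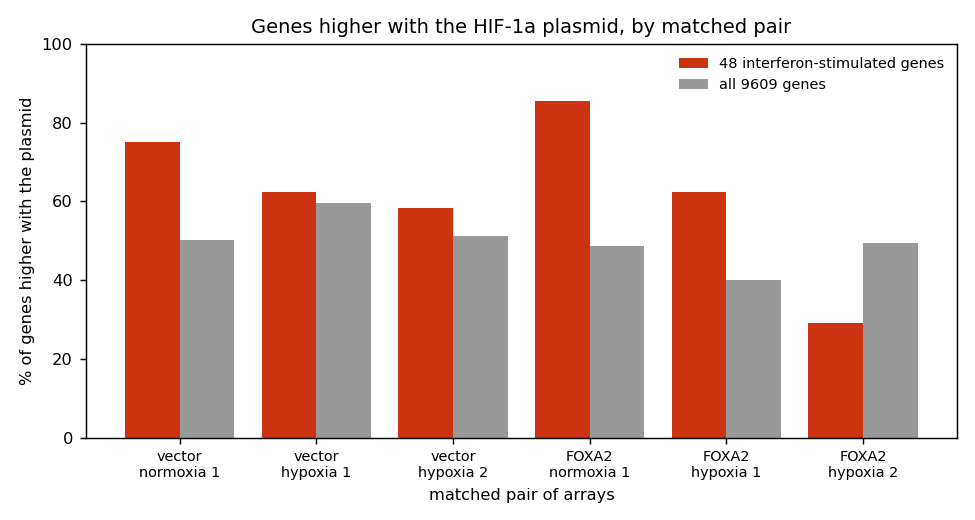
Share of genes (y axis, %) that were higher with the HIF-1a plasmid in each of the 6 matched pairs (x axis), for 48 interferon-stimulated genes (red) and all 9609 genes (grey). The normoxia pairs stand at 75% and 85.4%, and the FOXA2 hypoxia 2 pair at 29.2%.

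The remaining lists had 0 members called for the plasmid over all arrays. Medians lay from −0.10 for neuroendocrine markers to 0.11 for mesenchymal genes and the 3 immune markers. Among iron genes transferrin (Trf) was higher in 6 of 6 pairs (0.54 ± 0.14), and among p53 targets the kinase inhibitor Cdkn1a was too (0.31 ± 0.10), both with adjusted p = 0.48. For NF-kB and cytokine genes 6 were higher and 13 lower, and for oxidative phosphorylation genes 12 and 18. For the mesenchymal list 20 were higher and 6 lower, and for cell cycle genes 15 and 15.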

How the data were processed

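A total of 12 RNA samples from TRAMP-C cells were read on Illumina Mouse-6 BeadChips. The authors deposited a table of non-normalized bead intensities for 45281 probes, on a linear scale, and a detection p-value for each, per the file headers. They also deposited a processed intensity table of 26415 probes, whose array medians are nearly equal (86.08 to 86.21); it served as an alternative. Software, normalization and probe annotation are not given in the sources used here. Intensities were corrected and quantile-normalized with neqc (limma 3.58.1, R 4.3.3; offset 16) and put on a log2 scale. A probe was kept if at least 2 arrays detected it (p-value under 0.01), and the brightest kept probe stood for its gene, giving 9609 genes. Genes were named through GEO's platform annotation.

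limma (lmFit, eBayes) fitted plasmid, FOXA2, oxygen and replicate number, leaving 7 residual degrees of freedom; interaction terms gave the effect by oxygen level or FOXA2 state. Benjamini-Hochberg adjustment ran over all genes, with calls at an adjusted p under 0.05. The steps were tested on simulated data. The replicate number was kept as a block because the comparison is matched on it, and same-numbered hypoxia arrays deviated together (r of 0.286 to 0.782 over genes, 6 group pairs). A bound ("at least") sets a group's mean against the lowest level detected on each array of a group that was not above background. Such a bound takes no account of scatter between arrays. Named genes were Hif1a, Foxa2, the follow-up genes, the HIF regulators and the genes of smallest p in each comparison. Other named genes were chosen from the lists after their values were seen. Comparison members and gene lists were chosen with earlier results of these data known. Alternatives covered normalization, background correction, filters, probe choice, the processed table, slide, replicate block and leaving out each array.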

Additional observations from a re-analysis of the deposited data

Results flagged for a closer look

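Among 196 sets of 4 hypoxia arrays (with or without the plasmid), 12 held 1 array whose gap to its nearest neighbour was, as a share of the range, above Dixon's 95% critical value; chance gives about 1 in 20. That count is no measure against chance here, since Erbin, Jak1, Cox11, Tm4sf1 and Map1lc3b were named because they stood low on these arrays, and 1 array gave several. HIF-1a hypoxia 1 was the lowest array in 6 of them. On it Hsp90aa1 was at log2 8.38 (11.85 to 11.99 on the other 3 plasmid arrays), Ero1a, an endoplasmic reticulum oxidase, at 4.42 (7.41 to 8.0), Erbin at 4.51 (9.42 to 9.8), the cytokine receptor kinase Jak1 at 5.08 (9.38 to 9.76), Cox11 at 4.39 (8.89 to 9.08) and Rdh10 at 4.84 (5.27 to 5.33).

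FOXA2+HIF-1a hypoxia 2 was lowest for Tm4sf1, a tetraspanin-like surface protein, at 5.16 (9.69 to 9.97), and for the autophagosome protein Map1lc3b at 6.75 (10.28 to 10.71). FOXA2+HIF-1a hypoxia 1 was highest for Slc16a3 at 8.65 (6.36 to 6.56) and for the mean intensity of the array, 559 (298 to 342). Mgarp was highest on HIF-1a hypoxia 2, at 11.72 (10.51 to 10.56). Among arrays without the plasmid, Hif1a was lowest on FOXA2 hypoxia 1, at 9.42 (9.63 to 9.64).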

How the results depend on the processing

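Hif1a was called under every setting run: the plasmid effect ranged from 2.93 to 3.20 when 1 array was left out and from 2.49 to 3.30 under the other settings, the effect in normoxia from 3.24 to 3.80 and 3.12 to 3.52, and that in hypoxia from 2.57 to 3.01 and 2.66 to 3.14. Counts of calls moved under 4 settings, and the cause was not tested. Leaving out 1 array gave 1 to 2 calls for the plasmid effect (2 without control hypoxia 1, Hif1a and Acox3) and 1 in normoxia. It gave 1 to 752 in hypoxia and 0 for both differences of effects. The 752 came without HIF-1a hypoxia 2, which left only arrays that stood apart with the plasmid in hypoxia. Slide 2 alone gave 23 calls for the plasmid effect (2 higher, 21 lower). On that slide the effect rested on the hypoxia replicate 2 arrays, FOXA2+HIF-1a hypoxia 2 among them, an array that stood apart. Slide beside the replicate block gave 187 for the effect with minus without FOXA2 (61 higher, 126 lower). In that fit the effect with FOXA2 rested on FOXA2+HIF-1a hypoxia 2 alone, so the count is no support for a difference by FOXA2. With no replicate block, the counts of calls were 1 for the plasmid effect and 0 for the differences of effects. The block thus changed none of these counts. The counts at an unadjusted p under 0.05 did depend on the block. Without it they were 495 for the plasmid effect, 986 in hypoxia and 40 in normoxia, against 964, 1733 and 125 with it. Without both HIF-1a hypoxia 1 and FOXA2+HIF-1a hypoxia 2, an alternative chosen after seeing the data, 1 gene was called for the plasmid effect. The 45 HIF targets higher in hypoxia without the plasmid than in normoxia with it became 38 to 48 with 1 array left out and 45 to 51 otherwise. Over all alternatives, 213 of these values were rated the same and 4 moved. For a count, the same meant equal or close to the main count. For Hif1a it meant the same call and direction. Genes near background, such as Acox3 and Hp, are limited by signal over background.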
